A study of Mus musculus with 4 samples.

Results

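The ephrin, Slit and netrin guidance genes were followed in the mouse hippocampus at postnatal day 2, in tissue labelled ZBTB20 knockout and in that of littermates labelled wildtype or control. The genes were taken by name: every probe set with 1 gene symbol beginning with Epha, Ephb, Efna, Efnb, Slit or Robo and a digit, or with Unc5, and those of Ntn1, Ntn3, Ntn4, Ntng1, Ntng2, Dcc and Neo1. This gave 87 probe sets of 41 genes, out of 34945 probe sets of 18193 genes with 1 symbol. The name rule also takes in Unc50, an inner nuclear membrane protein gene, and Unc5cl, a death domain protein gene. Neither encodes a netrin receptor.

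Zbtb20 encodes a zinc finger transcription factor of the BTB family, and the study looked for its targets in the developing hippocampus. Each group had 2 Affymetrix expression arrays of total RNA, numbered replicate 1 and replicate 2. No other allele or treatment is named for either group. How the gene was inactivated, the strain, and whether 1 pup or a pool gave each RNA are not given in the sources used here. Where replicates are not separate animals, p-values measure only the spread between these arrays. Knockout was compared with control within each replicate number, as pair 1 and pair 2. Every difference is knockout minus control, as the arrays are labelled, on the scale log2(signal + 32.56), which understates the differences of dim probe sets.

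Growing axons are steered by cues they meet on other cells or in the matrix. Ephrins are membrane-bound ligands of Eph receptor tyrosine kinases. Ephrin-A proteins hold to the membrane by a lipid anchor and bind mostly EphA receptors, while ephrin-B proteins span it and bind mostly EphB receptors. Slits are secreted ligands of Robo receptors and mostly repel, and netrin-1 attracts through Dcc and repels through Unc5 receptors. In the hippocampus these systems are known for the layer-specific targeting of entorhinal axons, the paths of commissural axons and the maturation of dendritic spines.

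The arrays of a pair shared a scale, and the pairs did not. Median signals were 142.3 and 129.9 on the control and knockout arrays of replicate 1, and 73.79 and 75.83 on those of replicate 2. Of 9 Zbtb20 probe sets, 3 were lower on the array labelled knockout in pair 1, 2 in pair 2 and 0 in both, so they did not settle the labels. The widest Zbtb20 difference in each pair came from 1 probe set. Its signals, control first, were 4939 and 2412 in pair 1 and 284 and 592 in pair 2. Its differences had opposite signs, -1.02 and 0.98. Liver transcripts stood out on the replicate 1 arrays: in pair 1 albumin (Alb) reached 39309 in the control and 15195 in the knockout, against 42.2 and 45.2 in pair 2. Xist was also bright on both replicate 1 arrays only (2994 and 4093, against 36.3 and 39.9). The Y-linked Eif2s3y was at 304.5 and 10.7 in pair 1 and at 714 and 830 in pair 2. The control array of replicate 1 thus carried both transcripts, and the knockout array of replicate 1 mainly Xist. The arrays of pair 1 therefore differed in sex-linked transcripts as well as in label, while those of pair 2 were alike in them. The part of these differences between arrays in the guidance gene values was not tested. The hippocampal neuron genes Neurod6 and Prox1 were present on all 4 arrays, with Neurod6 at 6997, 7349, 1498 and 1745 (control and knockout of replicate 1, then of replicate 2).

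Most guidance genes differed in opposite directions in the pairs. A signal above the 40th percentile of mean log2 values was required, and 73 of the 87 probe sets, of 36 of the 41 genes, passed. Each gene was represented by its passing probe set with the highest mean. Opposite signs in the pairs were found for 26 of the 36, against 53.5% of all 12581 genes. Higher on the knockout array in pair 1 but lower in pair 2 were 16 of the 36 (26.1% of all genes), and the reverse order was found for 10 (27.4% of all genes). The median difference of the 36 was 0.08 in pair 1 and -0.09 in pair 2, against -0.01 and -0.00063 for all genes. Their median absolute difference was 0.42 and 0.22, against 0.21 and 0.12.

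With a difference of over 0.25 asked in each pair, a size chosen after the values were seen, 8 genes had a higher knockout signal in pair 1 and a lower one in pair 2, against 4.19% of all genes. They were Dcc, Efna3, Epha4, Epha6, Epha7, Neo1, Robo1 and Slit2. The reverse was found for 3, Epha3, Ephb1 and Ntn4, against 3.03% of all genes. None was over 0.25 higher in both pairs (0.882% of all genes), and only Efna2 was over 0.25 lower in both (1.71% of all genes). In pair 1, 5 genes were over 2-fold apart, against 4.07% of all genes, and in pair 2 none was, against 0.66%. Between pair 1 and pair 2, Pearson's r of the 36 differences was -0.54 and Spearman's rho -0.57. Over all 12581 genes r was -0.24 and rho -0.16. Genes within an array share its RNA and are not independent replicates.

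No guidance gene passed the test between the groups. limma, fitted to all 4 arrays and 27022 probe sets, called 0 of the 73 tested guidance probe sets at an adjusted p of 0.05, and 0% of all tested probe sets. At an unadjusted p under 0.05 it found 0 of the 73 and 5 of the 27022. The smallest unadjusted p among the guidance probe sets was 0.239, for the Efnb2 probe set with the lowest mean of the 4, with an adjusted p above 0.99. The difference between the scales enters the error of this fit, so that the SE of Epha4 was 1.76 around an estimate of -0.05. That SE is wider than the Epha4 difference in either pair, 0.86 and -0.95. Differences of that size could hardly be called by this fit. The 0 calls therefore do not show that the guidance genes are unchanged. The values within pairs below each set 1 array against 1 array and carry no p-value.

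**Figure D1:**
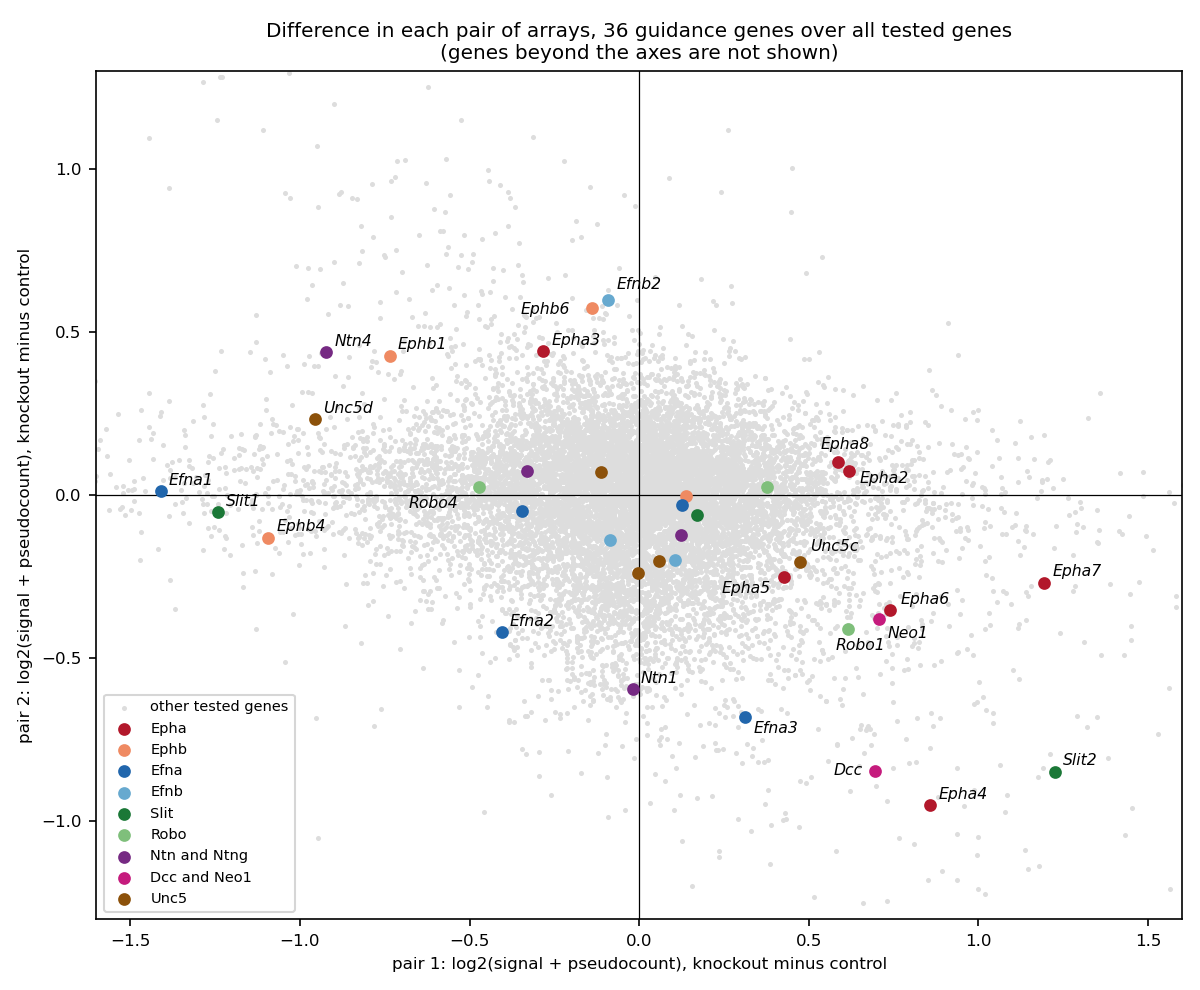
Difference between the array labelled knockout and the array labelled control in pair 1 (horizontal) and pair 2 (vertical), in log2(signal + 32.56), for the 36 guidance genes (coloured by family) and other tested genes within the axes (grey). Slit2, Epha4, Dcc and Efna3 lie at the lower right, Ntn4, Ephb1 and Epha3 at the upper left, and Efna1, Slit1 and Ephb4 on the left near the horizontal axis.

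Among the 7 tested EphA receptor genes, Epha4, Epha5, Epha6 and Epha7 were higher on the knockout array in pair 1 and lower in pair 2. The medians of the 7 were 0.62 and -0.25. Epha4 encodes a receptor that binds ephrins of both classes and is known for its action at dendritic spines. Its signals, control first, were 1658 and 3030 in pair 1 and 1369 and 693 in pair 2. The knockout array was thus the brighter of pair 1 and the dimmer of pair 2, with differences of 0.86 and -0.95. All 5 Epha4 probe sets had this order, from 0.62 to 1.40 in pair 1 and from -0.95 to -0.48 in pair 2.

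Epha7, whose product is expressed in the embryonic cortex and also made in a truncated form, was at 625 and 1471 in pair 1 and at 543 and 445 in pair 2. The gap was 1.19 in pair 1, or 0.89 with the gene's probe sets averaged, and -0.27 in pair 2. The other 3 Epha7 probe sets were also higher in pair 1, by at least 0.45, and lay between -0.65 and -0.38 in pair 2. Epha5 encodes a forebrain receptor of ephrin-A ligands. Its signals were 2571 and 3470, then 885 and 739, and its 4 probe sets lay between 0.27 and 0.43 in pair 1 and between -0.46 and -0.21 in pair 2. Epha6 had 1 probe set, at 173 and 310 in pair 1 and at 83.2 and 58.1 in pair 2, where the knockout signal lay below the array median.

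Epha3 showed the reverse order. Its product is a receptor of ephrin-A5 among others. The signals were 1978 and 1619 in pair 1 and 253 and 355 in pair 2, with differences of -0.28 and 0.44, and each of its 4 probe sets had this order. Epha2 (0.62 and 0.07) and Epha8 (0.58 and 0.10) were higher in both pairs, by small amounts in pair 2. Epha2 was dim, below the array median on all 4 arrays, at 56.2 and 104 in pair 1 and at 62.6 and 67.7 in pair 2.

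Promoter sequence is shown for 4 of the 26 genes with opposite signs, chosen as examples after their values were seen: Epha4, Epha7 and Slit2, higher and then lower, and Ephb1, lower and then higher. The stretches are the 250 bases before the start of each gene in RefSeq on GRCm38.p6, 5′ to 3′ on the strand of the gene. They lie at chr1:77515089-77515338 (minus strand, Epha4), chr4:28812881-28813130 (plus, Epha7), chr5:47982905-47983154 (plus, Slit2) and chr9:102354694-102354943 (minus, Ephb1). Capitals mark the GC box GGGCGG on either strand.
Epha4: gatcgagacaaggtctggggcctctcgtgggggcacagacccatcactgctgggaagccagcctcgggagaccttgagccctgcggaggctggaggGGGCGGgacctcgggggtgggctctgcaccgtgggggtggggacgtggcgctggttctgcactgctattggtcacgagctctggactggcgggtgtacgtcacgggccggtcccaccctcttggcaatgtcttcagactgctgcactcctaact
Epha7: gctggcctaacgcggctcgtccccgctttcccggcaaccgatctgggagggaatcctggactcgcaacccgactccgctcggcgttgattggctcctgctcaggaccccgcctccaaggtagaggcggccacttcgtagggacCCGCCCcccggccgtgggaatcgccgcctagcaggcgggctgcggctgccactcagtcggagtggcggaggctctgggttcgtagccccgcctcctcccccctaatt
Slit2: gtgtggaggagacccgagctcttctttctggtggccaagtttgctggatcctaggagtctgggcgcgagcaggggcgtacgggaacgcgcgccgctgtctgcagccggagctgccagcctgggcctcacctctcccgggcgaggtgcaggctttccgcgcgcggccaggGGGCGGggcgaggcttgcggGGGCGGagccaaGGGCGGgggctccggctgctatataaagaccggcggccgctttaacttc
Ephb1: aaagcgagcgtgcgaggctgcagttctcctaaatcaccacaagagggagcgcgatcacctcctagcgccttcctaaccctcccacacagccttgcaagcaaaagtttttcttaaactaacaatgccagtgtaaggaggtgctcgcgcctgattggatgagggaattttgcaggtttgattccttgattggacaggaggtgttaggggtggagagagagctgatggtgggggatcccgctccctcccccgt

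GC contents in these windows were 66% for Epha4, 69.2% for Epha7, 69.6% for Slit2 and 54% for Ephb1, with 1, 1, 3 and 0 GC boxes. Other genes did not keep to such a split: Ntn4, lower and then higher, had 73.2% and 4 boxes, and Robo1, higher and then lower, had 56% and 0. CCAAT on either strand was found once each in Epha4 and Epha7, in 2 copies in Ephb1 and not in Slit2, and TATAAA only in Slit2. Of the 41 guidance genes 36 had a promoter entry, a set that differs from the 36 tested genes. It lacks Dcc, Efnb3, Ntn1, Slit1 and Unc5d, and holds Epha1, Epha10, Ntn3, Robo3 and Unc5cl, which had no tested probe set. Of these promoters 75% held GGGCGG, against 32.9% of all 27025 promoters and 42.7% of the 17491 of protein-coding genes. The shares with CCAAT were 38.9%, 34.5% and 36.3%, and those with TATAAA were 5.56%, 13% and 12.4%. Median GC content was 64.4% for the guidance genes, 52% for all promoters and 55.2% for coding ones. A motif match describes these letters only.

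The ephrin-A ligand genes did not share 1 order. Efna3 was higher and then lower, at 799 and 1001 in pair 1 and 271 and 157 in pair 2. Its differences were 0.31 and -0.68, and its other probe set, at 0.39 and -0.40, had the same order. Efna1, which is also made by endothelium, was at 211 and 58.9 in pair 1 and at 51.4 and 52.1 in pair 2. It was thus bright on 1 array only, the control array of replicate 1, and the difference of -1.41 in pair 1 stood against 0.01 in pair 2, which turned to -0.017 with quantile normalization.

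Efna2 was lower on the knockout array in both pairs, with signals of 729 and 542 in pair 1 and 160 and 111 in pair 2. The differences were -0.41 and -0.42, and limma with replicate as a block gave an unadjusted p of 0.0485 and an adjusted p above 0.99. The other Efna2 probe set was at -0.28 in pair 1 and at 0.0012 in pair 2, so the lower pair 2 value was seen in 1 of the 2 probe sets. The Efna2 values were -0.38 and -0.70 with quantile normalization, and -0.34 and -0.21 with both probe sets averaged. Efna4 was at -0.35 and -0.05. Efna5, the ligand known for topographic maps, was at 567 and 622 in pair 1 and at 286 and 279 in pair 2, with differences of 0.13 and -0.03.

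The 4 tested EphB receptor genes had medians of -0.44 and 0.21. Ephb1 was lower and then higher. Its product is a receptor of ephrin-B ligands on axons and dendrites. It was at 2007 and 1192 in pair 1 and at 448 and 615 in pair 2. The control array was the brighter of pair 1 and the dimmer of pair 2, with differences of -0.74 and 0.43 from its single probe set. Ephb6, a receptor that lacks kinase activity, was nearly level in pair 1 (1098 and 994) and higher on the knockout array in pair 2 (76.8 and 130), at -0.14 and 0.57. Ephb3 was at 0.14 and -0.0016, and the pair 2 value turned to 0.014 with the arrays scaled to 1 trimmed mean. Ephb4, the venous endothelial receptor, was at 156 and 55.5 in pair 1 and at 65.7 and 57.2 in pair 2. As for Efna1, only the control array of replicate 1 lay above its array median, and the differences were -1.09 and -0.13. The first was under 2-fold, between -0.88 and -0.75, with quantile normalization, 1 trimmed mean or the higher pseudocount.

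Among the ephrin-B ligands Efnb2, which is also an arterial marker, was higher on the knockout array in pair 2. Its signals were 2033 and 1907 in pair 1 and 468 and 726 in pair 2, with differences of -0.09 and 0.60. The 4 Efnb2 probe sets were all higher in pair 2, from 0.13 to 0.64. In pair 1 they disagreed, with 3 between -0.09 and 0.32 and the remaining probe set at -2.22, where the signals were 250.2 and 28.1. Its mean log2 value was the lowest of the 4, but its low signal was on the knockout array of replicate 1. In pair 2 it was at 75.6 and 121. Efnb1 (0.11 and -0.20) and Efnb3 (-0.09 and -0.14) had small differences, and the other 2 Efnb1 probe sets were at -0.66 and -0.20 in pair 1.

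**Figure D2:**
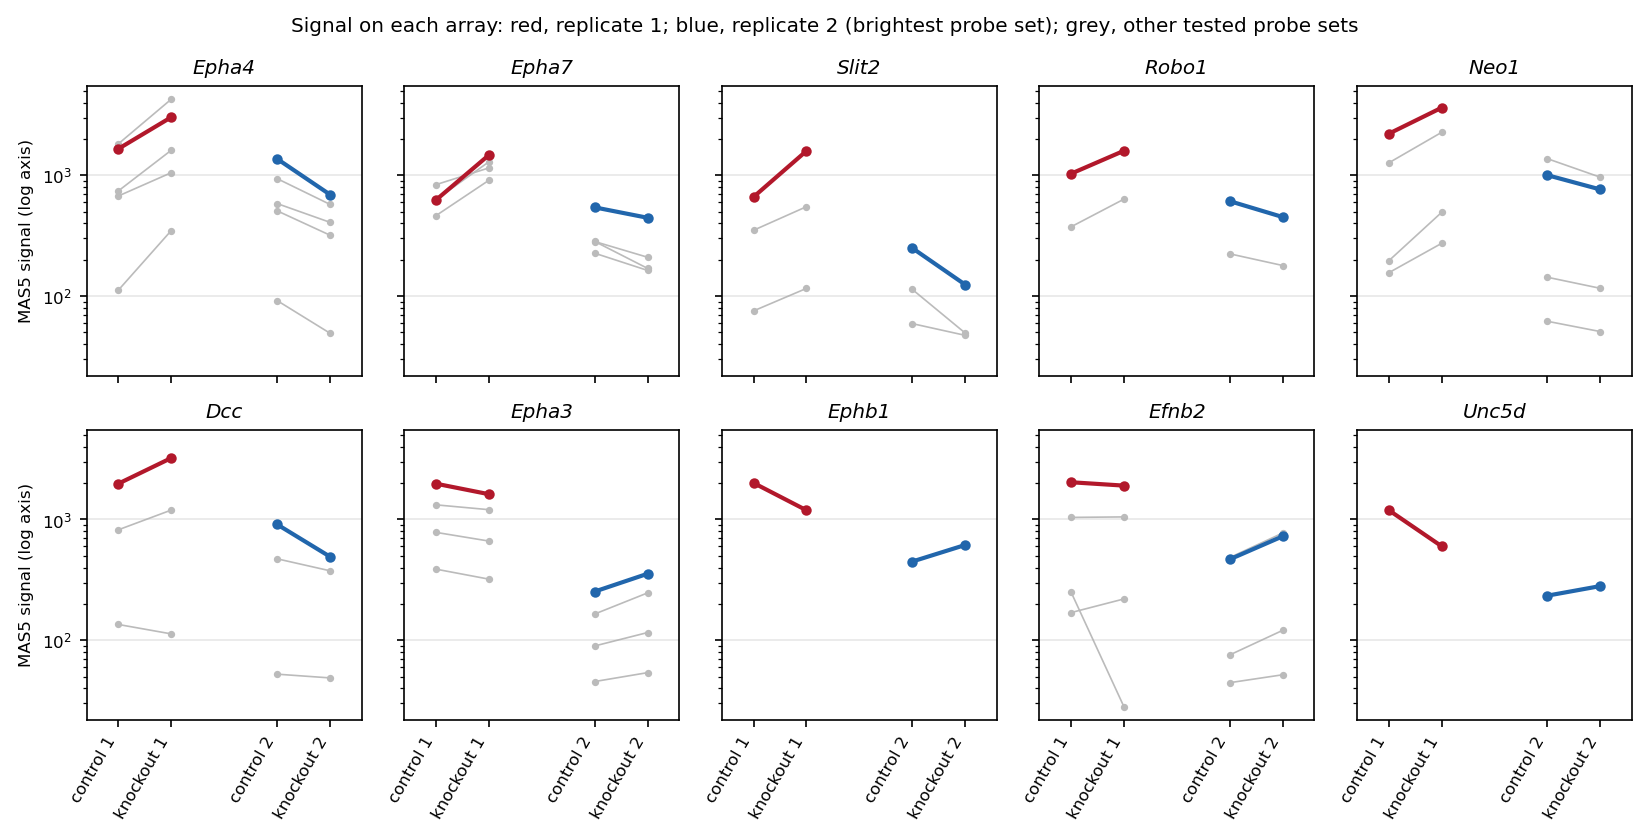
MAS5 signal on a log axis for 10 guidance genes on the 4 arrays, with lines joining the control and knockout arrays of a pair (red for replicate 1, blue for replicate 2, each the brightest tested probe set, with the other tested probe sets in grey). Epha4, Epha7, Slit2, Robo1, Neo1 and Dcc slope up in pair 1 and down in pair 2, while Epha3, Ephb1 and Unc5d slope the other way and 1 Efnb2 probe set drops steeply in pair 1 alone.

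Slit2, the secreted repellent, was higher on the knockout array in pair 1 and lower in pair 2. Its signals were 662 and 1591 in pair 1, and 250 and 124 in pair 2. The differences were 1.22 and -0.85, and the first was 0.76, under 2-fold, with the gene's probe sets averaged. The other 2 Slit2 probe sets had the same order, at 0.60 and -0.83 and at 0.46 and -0.20, but were dimmer. The former lay below the array median on the knockout array of replicate 2 (49.5), and the latter on all 4 arrays. Slit1 was at 356 and 132 in pair 1 and at 224 and 215 in pair 2, and so lower in pair 1 (-1.24, or -0.98 with quantile normalization) and nearly level in pair 2 (-0.05). Its second probe set was at -0.82 and 0.04. Slit3 was at 0.17 and -0.06, with both replicate 2 signals below the array median.

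Robo1, the Slit receptor of growing forebrain axons, had the order of Slit2. Its signals were 1032 and 1597 in pair 1 and 611 and 451 in pair 2, with differences of 0.61 and -0.41. The second tested Robo1 probe set was at 0.71 and -0.28. Robo2 was dim, above the array median only on the knockout array of replicate 1, at 0.38 and 0.03. Robo4, the endothelial member of the family, was at 196 and 132 in pair 1 and 75.6 and 77.6 in pair 2, with differences of -0.47 and 0.03.

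Both receptors of the Dcc and neogenin family were higher on the knockout array in pair 1 and lower in pair 2. Dcc, which mediates attraction to netrin-1, was at 1981 and 3228 in pair 1 and at 910 and 492 in pair 2. The differences were 0.70 and -0.85. Of the other 2 Dcc probe sets, the brighter was at 0.53 and -0.31, and the dimmer at -0.20 and -0.06. Neo1 encodes neogenin, a receptor of netrins and of repulsive guidance molecules. It was at 2207 and 3624 in pair 1 and at 1003 and 764 in pair 2, and all 4 tested probe sets shared this order, from 0.70 to 1.20 and from -0.50 to -0.18. The probe set at 1.20 and -0.18 lay below the array median on both replicate 2 arrays. The Neo1 probe set too dim to be tested had the reverse order, at -1.37 and 0.11, with signals of 63.3 and 4.6 in pair 1.

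The ligand gene Ntn1 did not follow Dcc and Neo1 in pair 1. It was at 162 and 159 in pair 1, a difference of -0.02 that turned to 0.059 with quantile normalization. In pair 2 it was at 95.5 and 52.2 (-0.60), with the knockout signal below the array median. Ntn4, a laminin-like netrin, was at 326 and 157 in pair 1 and at 103 and 151 in pair 2, at -0.92 and 0.44, while its second probe set was at 0.34 and 0.17. The membrane-anchored netrin-G genes had small differences, Ntng1 at 0.12 and -0.12 and Ntng2 at -0.33 and 0.08. Ntng2 is also among the subiculum and retrosplenial markers described below.

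Of the Unc5 netrin receptors, Unc5d was at 1196 and 601 in pair 1 and at 234 and 281 in pair 2. It was thus lower and then higher, at -0.96 and 0.23 from its single probe set. Unc5c had the opposite order, at 617 and 869 in pair 1 and 223 and 189 in pair 2, with differences of 0.47 and -0.20 and a second probe set at 0.38 and -0.07. Unc5a was at 0.06 and -0.20. Unc5b was at -0.11 and 0.07, and its second probe set at 0.38 and 0.10. Unc50, which the name rule took in, was at -0.0027 and -0.24, and without it 26 of 35 genes had opposite signs.

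Probe sets of 1 gene were compared as repeat readings of the same RNA, which are not replicates. Of 18 guidance genes with at least 2 tested probe sets, 11 had all of 1 sign in pair 1 and 14 in pair 2, and 9 in both. These shares were 61.1%, 77.8% and 50%, against 43.6%, 59% and 28.7% of 5962 genes with several tested probe sets. The 9 genes were Efna3, Epha3, Epha4, Epha5, Epha7, Neo1, Robo1, Slit2 and Unc5c, and each had opposite signs in the pairs. Of the guidance probe sets tested, 11 of 73 were over 2-fold apart in pair 1, against 4.37% of all tested probe sets, and 0 in pair 2, against 0.518%.

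**Figure D3:**
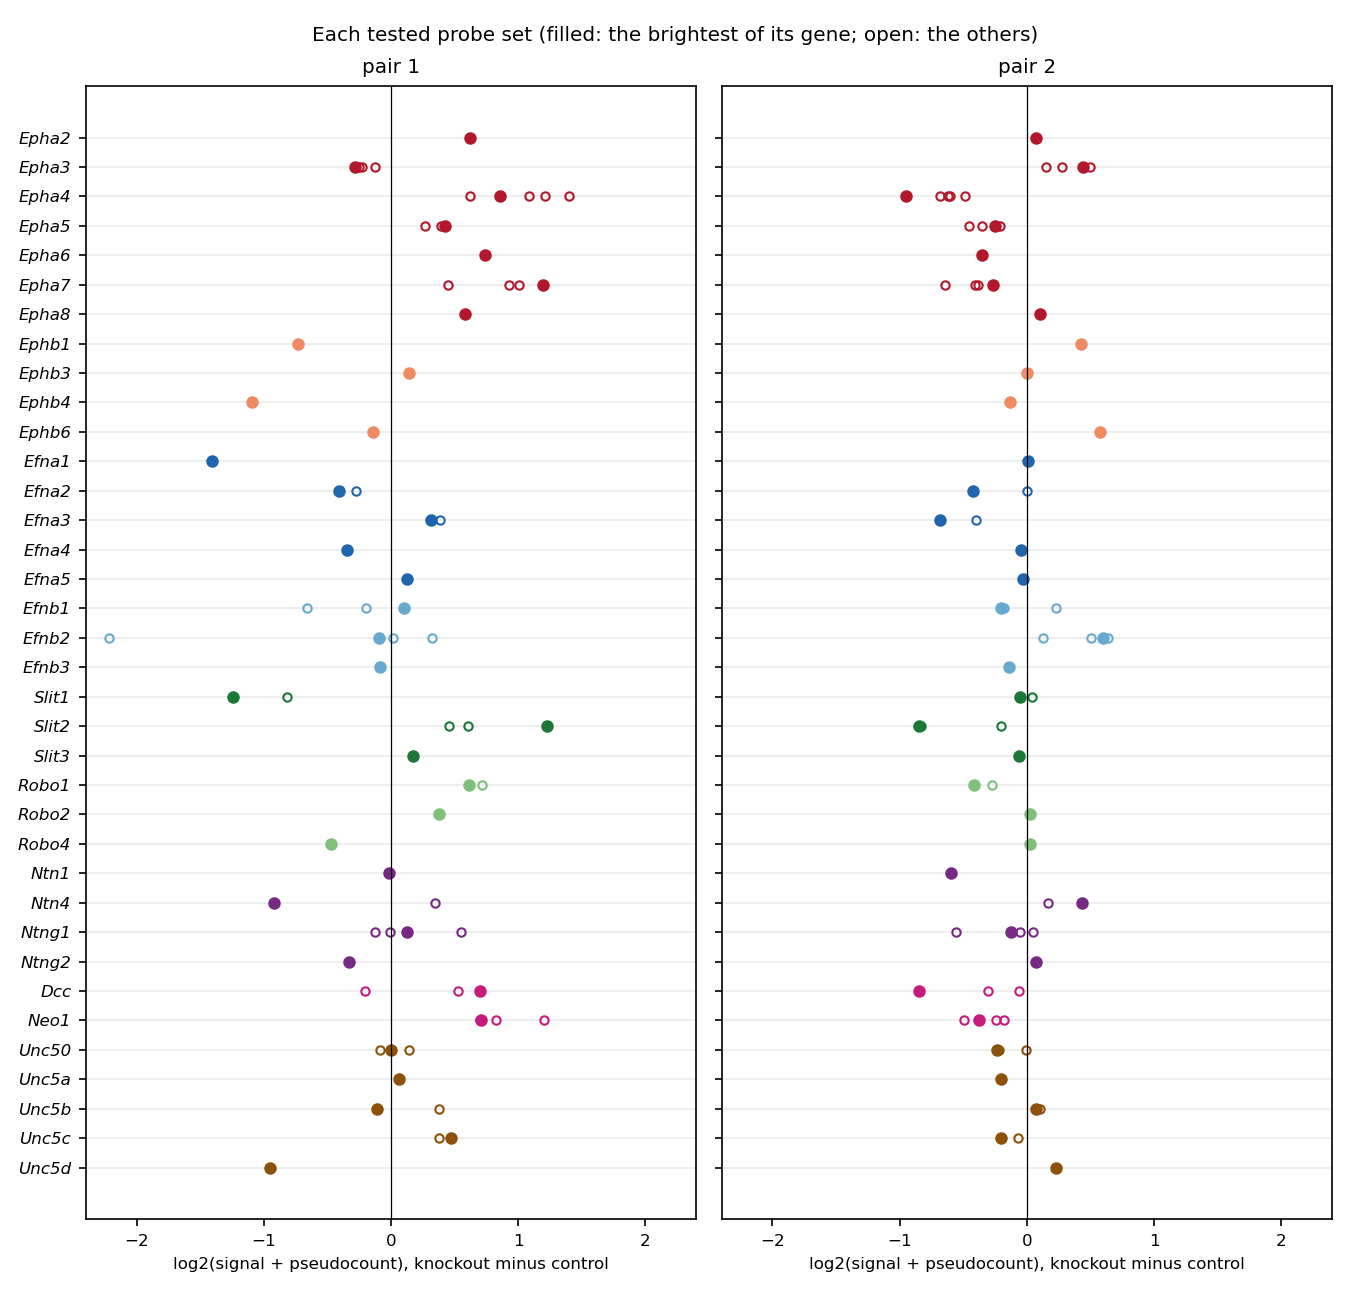
Difference between the arrays of each pair, in log2(signal + 32.56), for every tested probe set of the 36 guidance genes, grouped by family (filled points, the brightest probe set of a gene; open points, the others). The points of Epha4, Epha5, Epha7, Slit2 and Neo1 lie right of 0 in pair 1 and left of 0 in pair 2, and the spread is wider in pair 1 than in pair 2.

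The 5 genes without a tested probe set were Epha1, Epha10, Ntn3, Robo3 and Unc5cl. Together with dim probe sets of Efna1, Efna5, Neo1, Ntn1, Ntng2 and Robo1 they made up the 14 probe sets not tested. Their differences ran from -1.70 to 1.62 in pair 1 and from -0.11 to 0.20 in pair 2, and 8 of the 14 were over 2-fold apart in pair 1. The 2 Robo3 probe sets differed in opposite directions in pair 1: 1 was at 5.7 and 85.3, the other at 64.1 and 1.8. Among the 36 tested genes, 29 were brighter than the array median on all 4 arrays.

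Partners and effectors of the same pathways were taken from a list of 50 genes. Of these 47 were tested, limma called 0 of them (0% of all probe sets), and 0 were over 2-fold apart in pair 1 (4.07% of all genes) or pair 2 (0.66%). In pair 1, 25 were higher and 22 lower on the knockout array, and in pair 2 28 were higher and 19 lower. Higher in pair 1 and lower in pair 2 were 9 of the 47, against 26.1% of all genes. The reverse order was found for 12, against 27.4% of all genes. The partners as a list thus did not share the excess of opposite signs seen for the guidance genes. The medians were 0.0095 and 0.041, and the first turned to -0.0053 with quantile normalization. Dscaml1, a relative of the netrin receptor Dscam, was at 0.49 and -0.88, the order of Dcc. Flrt2, a ligand of Unc5d, was at -0.56 and 0.48, the order of that receptor, and Lrrc4c, the ligand of netrin-G1, was at -0.24 and 0.53, the reverse of Ntng1. The neogenin ligand genes Rgma (-0.18 and 0.19) and Rgmb (0.43 and 0.19) did not have the order of Neo1. The kinase genes Fyn (0.22 and -0.15) and Src (0.47 and 0.22), and Chn1 (0.24 and 0.08), which acts downstream of EphA4, were also tested.

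Markers of neighbouring regions and of other cells also differed within the pairs. In bulk tissue, fewer cells of a type and less RNA per cell cannot be told apart. GABAergic interneuron genes had the order of Epha4 and Slit2: of 9 tested of 10 listed, 8 had that order, against 26.1% of all genes. The list's medians were 0.29 and -0.82, and its summed signals 10531 and 13828 in pair 1 and 4295 and 2418 in pair 2. Subiculum and retrosplenial genes had the order of Ephb1 and Epha3: of 8 tested of 10 listed, 7 had it, against 27.4% of all genes. The list's medians were -0.66 and 0.70, and its summed signals in the same sequence of arrays 42194, 21545, 3533 and 10234.5. Of 10 genes of deep cortical layers 6 had that order, with medians of -0.20 (-0.068 with quantile normalization) and 0.78. Their summed signal ran the other way, at 23012 and 24214 in pair 1 and 8380 and 7425 in pair 2. Crym, the brightest of the 10 on every array, had the order of the sum and weighs most in it. It was at 5441 and 10892 in pair 1 and at 4826 and 2226 in pair 2. The part of these regions and cells in the guidance gene values was not tested.

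Efna1, Ephb4 and Robo4 were lower on the knockout array in pair 1 and nearly level in pair 2, as were the medians of the liver list and the endothelial list. Slit1 (-1.24 and -0.05) and Efna4 (-0.35 and -0.05) had the same pattern. The 8 tested liver genes other than Ttr, which choroid plexus also makes, were all lower in pair 1, with medians of -2.08 and 0.000928. Their summed signal was 58286.8 and 19647.2 in pair 1 and 311 and 315 in pair 2. Of 10 endothelial and pericyte genes 7 were lower in pair 1, with medians of -0.31 and -0.0054, the second turning to 0.0073 with the arrays scaled to 1 trimmed mean. Their summed signal, at 4910 and 5548 in pair 1 and 1726 and 1579 in pair 2, was higher on the knockout array in pair 1. No gene of these lists was at 0 on any array. The part of liver or vessel RNA in the values of these genes was not tested.

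The remaining lists are given by their medians, with summed signals where these ran the other way. Genes of hippocampal pyramidal and granule cells, a list that includes Zbtb20, were at 0.24 and 0.06, with 11 of 12 tested. In pair 2, 6 of the 11 were higher and 5 lower on the knockout array, and their summed signal was lower, at 8917 and 8359. Superficial cortical layers were at 0.16 and 0.44, with 9 of 10 tested. Thalamic genes were at 0.16 and -0.57 (5 of 6 tested), the order of the interneuron list, and striatal genes at 0.83 and -0.03 (5 of 8 tested). Choroid plexus genes were at 0.44 and 0.43 (7 of 8 tested) and meningeal genes at -0.24 and -0.26 (8 of 8 tested). The summed meningeal signal was higher on the knockout array in pair 2, at 1322 and 1544. With quantile normalization the pair 2 medians were -1.01 for thalamus, 0.72 for choroid plexus and -0.49 for meninges, and the meningeal pair 1 median was -0.13.

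**Figure D4:**
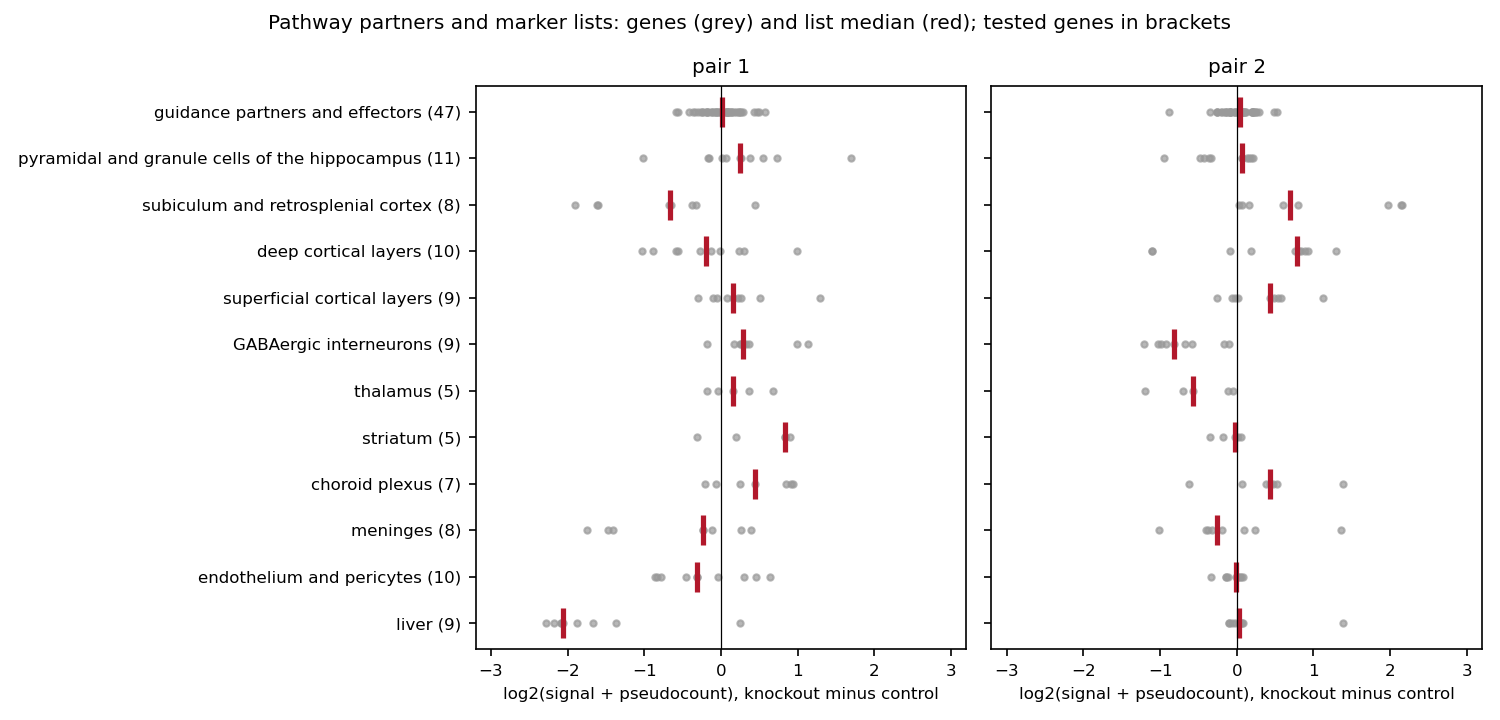
Difference between the arrays of each pair, in log2(signal + 32.56), for the pathway partners and the marker lists (grey points, single tested genes; red bars, list medians; numbers in brackets, tested genes). Most interneuron genes lie right of 0 in pair 1 and left of 0 in pair 2, and most subiculum and retrosplenial genes the other way. Liver genes other than Ttr lie far left in pair 1 alone.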

How the data were processed

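The authors deposited 1 linear signal intensity per probe set and array. The submitters' processing notes name MAS5. Version, scaling target and background setting are not given in the sources used here, and the genome build is not either. Of 45037 probe sets, 34945 had 1 gene symbol in the platform annotation, 932 had several and 9160 none. All 87 guidance probe sets matched a RefSeq gene by Entrez ID, with 0 symbols changed.

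The authors' scaling was kept. Signals were transformed as log2(signal + 32.56), the pseudocount being the 20th percentile of all values. Testing was limited to probe sets whose mean log2 value exceeded the 40th percentile. Groups were compared with limma 3.58.1 in R 4.3.3 (lmFit, eBayes with trend, no covariate), with Benjamini-Hochberg adjustment over 27022 probe sets. The fit was also run on simulated arrays with 200 changed probe sets. That check required only that the mean estimated change lie close to the change put in. Passing it does not show that such changes would be called. Sums, medians and counts were made in Python 3.11.15. The number of arrays limits the precision.

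Genes named with values were those over 2-fold apart in either pair, those with the widest difference in both pairs of the same or of opposite sign (6 each), and the widest of each family. Other guidance genes were named with their values known. The members and lists were chosen with earlier results of these data known. Alternatives were quantile normalization, 1 common trimmed mean (2% trimmed at each end), a higher pseudocount (40th percentile), no filter, averaging each gene's probe sets, the replicate block and leaving out each array.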

Additional observations from a re-analysis of the deposited data

How the results depend on the processing

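limma called 0 guidance probe sets and 0 of all probe sets in every setting run: with quantile normalization, a common trimmed mean, the other pseudocount, no filter, the replicate number as a block, and without each array in turn (0 in all 4). With the block, 1 of the 73 guidance probe sets and 330 of all 27022 were under an unadjusted p of 0.05. The fit had 2 residual degrees of freedom, and 1 once the block was added. No label ties a replicate number to a litter or day; across probe sets, the deviations from the group mean correlated at 0.837 for arrays of 1 number. Leaving out an array leaves 1 sample in a group, assumed to vary like the other group.

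The count of genes over 2-fold apart in pair 1 (5) was 3 with quantile normalization (without Ephb4 and Slit1) and 8 with no filter, which adds the dim Epha1, Epha10 and Robo3. Ephb4 was also under 2-fold with 1 trimmed mean and the higher pseudocount. With probe sets averaged Epha7 and Slit2 were under 2-fold and Epha4 (1.03) over it. In pair 2 it was 2 instead of 0 with quantile normalization, where Slit2 was at -1.20 and Ntn1 at -1.07. The count with opposite signs (26 of 36) was 25 or 26 in the settings that kept the 36 genes, and 28 of 41 with no filter. That of genes over 0.25 higher and then lower (8) was 8 or 9. Of 360 single-gene values under the alternatives 6 changed sign. The 72 values without the filter could not change, since the brightest probe set of each gene stayed the same. Averaging could not change genes with 1 tested probe set either. With quantile normalization Efna1 was at -0.0167 in pair 2 and Ntn1 at 0.0593 in pair 1. With 1 trimmed mean Ephb3 was at 0.0137 in pair 2. With probe sets averaged, Efnb1 was at -0.25, Unc50 at 0.0168 and Unc5b at 0.13 in pair 1. The cause was not tested, except that averaging includes probe sets of the other sign for these 3 genes. The counts over 0.25, and the values without Unc50, were chosen after seeing the data. Dim signals limit the values of Epha2, Ephb4, Efna1 and Robo2, and the pair 2 value of Ntn1.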
